A study of Mus musculus with 18 samples.

Results

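The comparison described here is the effect of Trem2 genotype on gene expression in the caudal corpus callosum, pooled over both stages of the study. All 18 arrays of the series entered it, 9 from Trem2 knockout (KO) mice and 9 from wild-type (WT) mice. One difference between KO and WT was estimated per gene with stage (6 or 12 weeks) as a covariate and with no interaction term, so that both stages contributed to it. Of 16324 genes tested, 138 passed at an adjusted p under 0.05, which is 0.845% of the genes tested, with 126 higher in KO (0.772%) and 12 lower in KO (0.0735%). Of these 138 genes, 85 passed in neither single-stage test, and most of the account below concerns them.

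TREM2 is a lipid-sensing receptor of microglia and other macrophages that signals through the adaptor TYROBP and the kinase SYK. Cuprizone is a copper chelator that kills oligodendrocytes when given in the diet, and the corpus callosum, a large white matter tract, loses myelin under it. Microglia gather there and take up myelin debris. Resting microglia are known for a set of surface genes that includes P2ry12, Tmem119, Cx3cr1 and Siglech. In damaged tissue microglia lower these genes and raise others, such as Itgax, Lpl and Spp1, and mouse models of neurodegeneration are known in which that shift is incomplete without TREM2.

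The arrays fell into 4 groups: KO at 6 weeks (3 arrays), WT at 6 weeks (4 arrays), KO at 12 weeks (6 arrays) and WT at 12 weeks (5 arrays). All mice were C57BL/6 and all groups received a diet with 0.2% cuprizone, so no group without cuprizone was used here and each difference is one between genotypes under the diet. Whether stage means mouse age or weeks of cuprizone is not settled by the labels, which speak of age in one place and of feeding time in another. Nor do they say that every array came from its own mouse, and the p-values therefore reflect only how arrays spread, part of which may be technical. RNA was amplified from small amounts and labelled with biotin, with 1 sample per array, and the values are log2 signals of probe sets, summarised here to 1 value per gene. In bulk tissue, fewer cells of a type and less RNA per cell cannot be told apart. The number of arrays limits the precision.

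The genotype labels were checked with Trem2 itself. At 6 weeks Trem2 had log2 values of 6.05, 5.94 and 5.42 in KO, against 7.21, 7.09, 8.42 and 6.44 in WT. At 12 weeks KO arrays ranged from 4.79 to 5.59 with a median of 5.33, against 6.83, 6.96, 7.29, 7.86 and 7.84 in WT. Every KO array lay below every WT array of its stage. The pooled difference was -1.86 ± 0.23 (log2, SE; n = 9 each), 3.63-fold lower in KO, with an adjusted p of 1.17e-04 by limma. An exact two-sided permutation test of this difference within stages gave p = 6.18e-05, the smallest that the 16170 arrangements allow. Across its 7 probe sets the Trem2 difference ran from -0.39 to -3.13. The related genes Treml1 (-0.17) and Treml2 (-0.12) did not pass. Of the 100 genes nearest to Trem2 on chromosome 17, 0 passed the pooled limma test, and their median difference was -0.03. An unadjusted p under 0.05 in that test was found for 10 of the 100, against 1682 of all 16324 genes tested.

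Pooling changed which genes could be called. At 6 weeks 7 genes passed (0.0429% of the genes tested). At 12 weeks 72 genes passed (0.441%), of which 60 were higher and 12 lower in KO. Both tests came from a fit to all 18 arrays with a shared spread, so neither used the arrays of its stage alone. With a 6-week array left out, the 12-week count ran from 68 to 130. Without KO replicate 2 and WT replicate 4 of 6 weeks, 217 genes passed at 12 weeks and 127 pooled. Whether the genes called only by pooling would pass at 12 weeks in such fits was not tested. Of the 138 pooled genes, 6 passed at both stages (Siglech, P2ry13, Thrsp, Crybb1, Ecscr and P2ry12), 47 passed at 12 weeks, and 85 passed at neither stage, 77 of them higher and 8 lower in KO. All 138 had the same sign at both stages, against 8834 of all genes tested (54.1%), though passing a pooled test partly fixes that share. In the plot of stage against stage the 85 genes lie along the diagonal, with Lpl, Cybb and Slamf7 at the lower end and Ccl12 at the upper end.

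**Figure D1:**
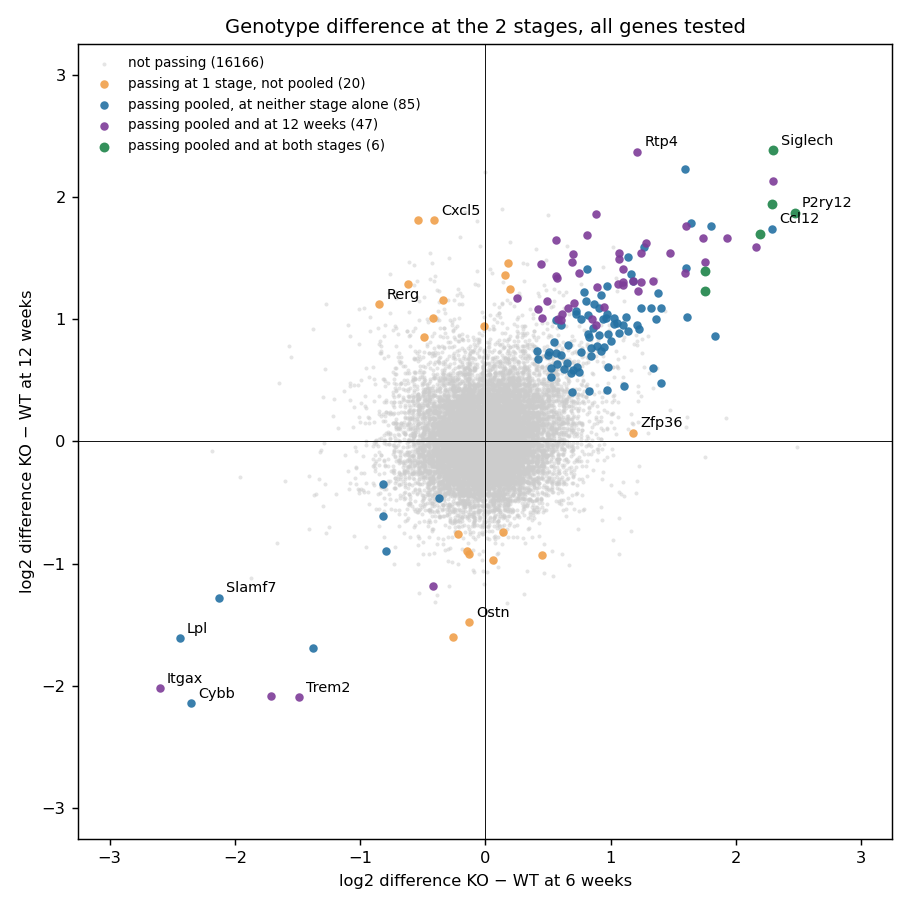
Log2 difference KO minus WT at 6 weeks (x axis) and at 12 weeks (y axis) for the 16324 genes tested, 1 point per gene, coloured by the tests the gene passed. The 85 genes passing pooled but at neither stage lie at the upper right (77) and the lower left (8).

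The median absolute difference of the 85 genes was 0.92 at 6 weeks and 0.92 at 12 weeks, although passing pooled and at neither stage favours genes with balanced differences. Single genes were less even, such as Slc1a2 (1.11 at 6 weeks and 0.45 at 12 weeks), Btg2 (1.34 and 0.60) and Arpc1a (-0.82 and -0.35). Of the 85, 39 had the larger difference at 12 weeks. The median SE was 0.31 at 6 weeks, 0.25 at 12 weeks and 0.19 in the pooled fit. This order follows from the numbers of arrays, since the stages share their spread, and it does not describe the spread within a stage. At the single stages 77 of the 85 had an unadjusted p under 0.05 at both. Their adjusted p was 0.0590 or more at 6 weeks and 0.0506 or more at 12 weeks, and 35 of them had an adjusted p under 0.1 at 12 weeks. KO and WT arrays did not overlap at either stage for 15 of the 85 genes and 36 of the 138, where 40 genes (0.245%) of all those tested showed this. In the interaction test, which asks whether the genotype difference changes with stage, 0 genes passed by limma (0.00%). An unadjusted p under 0.05 in it was found for 849 of all 16324 genes tested and 6 of the 138. Where no difference changed, a share of about 0.05 would lie under that cut. Just inside the threshold were C4b (adjusted p = 0.0499) and Arpc1a (0.0499), and just outside Cela3b (0.0528), Lair1 (0.0529) and Vaultrc5 (0.0553).

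**Figure D2:**
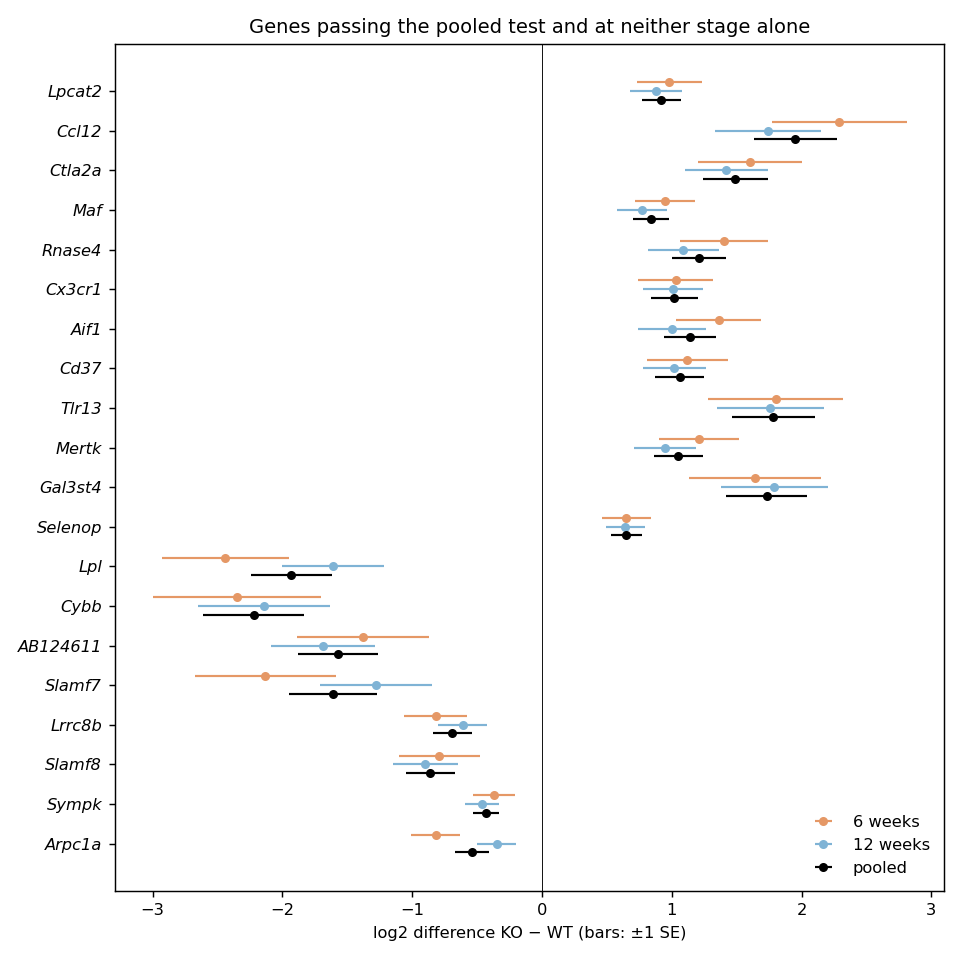
Log2 difference KO minus WT at 6 weeks, at 12 weeks and pooled, with bars of ±1 SE, for the 12 rises with the smallest p and the 8 falls among genes passing the pooled test and at neither stage. The 3 estimates of a gene lie on the same side of 0, and the pooled SE is the shortest bar. The order of the SE bars follows from the numbers of arrays.

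Genes that mark resting microglia made up the clearest group of rises. Of 20 tested members of this list, 15 rose in KO and 0 fell, all 20 had a positive difference, and the median was 1.21 against 0.00 for all genes tested. The largest rise of all genes that passed was that of Siglech, a sialic acid-binding lectin. Siglech had 8.07, 10.01 and 8.64 in KO at 6 weeks, against 6.65, 6.33, 6.48 and 6.98 in WT, and at 12 weeks 8.24 to 9.08 with a median of 8.90 in KO, against 6.58, 6.11, 6.79, 5.94 and 6.67 in WT. The groups did not overlap at either stage, and the pooled difference was 2.35 ± 0.21 (adjusted p = 4.81e-06, limma), a 5.09-fold rise. The purinergic receptor genes P2ry12 (2.10 ± 0.26) and P2ry13 (1.89 ± 0.19) also had no overlap at either stage and passed at both. Fcrls (2.20), Gpr34 (1.76), a receptor for lysophosphatidylserine, and the fructose transporter gene Slc2a5 (1.58) passed pooled and at 12 weeks.

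A further 5 members of that list passed only when the stages were pooled: Cx3cr1, Mertk, Csf1r, Sparc and Cst3. Cx3cr1 encodes the fractalkine receptor through which neurons signal to microglia. It had 9.14, 10.22 and 9.52 in KO at 6 weeks, against 8.31, 8.25, 9.43 and 8.38 in WT, and 9.19 to 9.63 with a median of 9.51 in KO at 12 weeks, against 8.03, 9.03, 8.36, 8.36 and 8.51 in WT. The groups overlapped at 6 weeks through the single high WT array, replicate 3, and not at 12 weeks. The difference was 1.03 at 6 weeks and 1.01 at 12 weeks, and 1.02 ± 0.18 pooled (adjusted p = 0.00515, limma), a 2.03-fold rise. On its brightest probe set alone the difference was 0.25 and did not pass (adjusted p = 0.343).

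Mertk, a receptor tyrosine kinase by which phagocytes engulf apoptotic cells and myelin, had 7.07, 8.10 and 7.54 in KO at 6 weeks, against 6.50, 6.03, 7.24 and 5.68 in WT. At 12 weeks KO arrays ran from 6.73 to 7.38 with a median of 7.12, against 6.46, 6.09, 5.73, 6.03 and 6.29 in WT. Only WT replicate 3 of 6 weeks reached into the KO range. The pooled rise was 1.05 ± 0.19 (2.07-fold, adjusted p = 0.00586). Csf1r, the receptor for the growth factor that microglia need to survive, rose by 0.96 ± 0.22 (adjusted p = 0.0433) but passed in only 3 of the 18 fits that left out an array, and Sparc, a matrix-binding glycoprotein gene, passed in 4. Cst3, a secreted cysteine protease inhibitor, rose by 0.51 ± 0.10 (adjusted p = 0.0162). KO and WT arrays of Cst3 did not overlap at either stage. On the brightest probe set neither Mertk (0.94, adjusted p = 0.261) nor Cst3 (0.29, adjusted p = 0.198) passed. The members of the list that did not pass were Sall1 (0.62), Olfml3 (0.57), Sall3 (0.50), Tgfbr1 (0.33) and Mef2c (0.31).

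**Figure D3:**
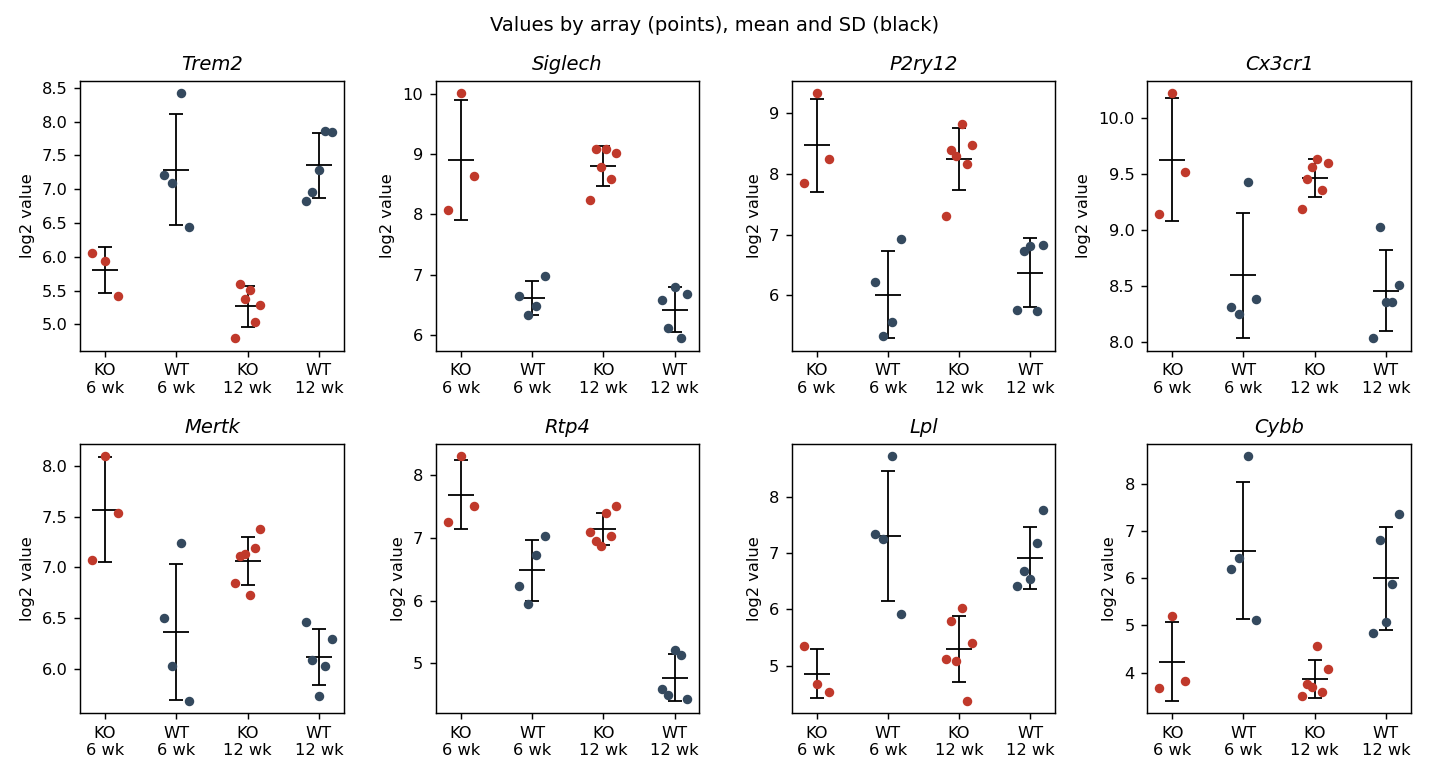
Log2 values of 8 genes by array, KO left of WT at each stage (3 KO and 4 WT arrays at 6 weeks, 6 KO and 5 WT arrays at 12 weeks), with mean and SD in black. Siglech, P2ry12 and Rtp4 are high and Trem2 and Lpl low in every KO array of a stage, while single WT arrays of 6 weeks reach the KO range of Cx3cr1 and Mertk.

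Among regulators of microglia, Maf, a transcription factor of macrophages and microglia, passed only in the pooled test. It had 6.63, 7.17 and 6.41 in KO at 6 weeks, against 5.66, 5.32, 5.90 and 6.28 in WT, and 6.14 to 6.85 with a median of 6.32 in KO at 12 weeks, against 5.59, 5.47, 5.83, 5.60 and 5.55 in WT. The groups did not overlap at either stage, and the pooled rise was 0.84 ± 0.14 (1.79-fold, adjusted p = 0.00439, limma). It was the single gene of 10 in its list to pass. Spi1, which encodes the lineage factor PU.1, differed by 1.06 (adjusted p = 0.131), Cebpa by 0.51 (adjusted p = 0.273), Ikzf1 by 0.60 (adjusted p = 0.320) and Irf8 by 0.00 (adjusted p = 0.999).

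Genes that all myeloid cells express had smaller differences. Of 20 tested members, 6 rose (Itgam, Laptm5, Aif1, Ly86, Ctss and Cd53), 0 fell, and the median was 0.52. Aif1, which encodes the microglial marker IBA1, passed only when pooled. It had 8.57, 10.06 and 8.61 in KO at 6 weeks, against 7.94, 7.20, 8.41 and 7.32 in WT, and 8.75 to 9.10 with a median of 8.96 in KO at 12 weeks, against 7.83, 7.75, 7.56, 8.21 and 8.33 in WT. The groups did not overlap at either stage, and the pooled rise was 1.14 ± 0.20 (2.20-fold, adjusted p = 0.00568). In the other direction, but without passing, lay Ptprc, the pan-leukocyte gene for CD45 (-0.41, adjusted p = 0.636), and Cd52 (-0.52, adjusted p = 0.511). The adaptor gene Tyrobp differed by 0.48 (adjusted p = 0.205). With an array left out Cd53 passed in 5 of 18 fits, and on the brightest probe set Itgam (0.28), Ctss (0.26) and Cd53 (0.56) did not pass.

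The mean level of the 20 pan-myeloid genes, as a measure of myeloid RNA in an array, moved with genotype: it ran from 7.57 to 8.89 in KO and from 6.82 to 8.41 in WT at 6 weeks, and from 7.55 to 8.22 in KO and from 7.03 to 7.76 in WT at 12 weeks. KO replicate 2 of 6 weeks was the highest of its group for 107 of the 126 genes that rose. WT replicate 3 of 6 weeks was so for 70 of the 126, and neither was counted over all genes tested. That KO array also differed in other cell types. Its mean level of the neuron list was 6.55, against 8.07 and 8.23 in the other KO arrays of 6 weeks. For the astrocyte list it was 8.67, against 8.03 and 8.29. The reason was not tested. With the mean pan-myeloid level as a covariate, 45 genes passed, 20 higher and 25 lower in KO, of which 28 were among the 138. Of the 85 genes, 5 still passed, and all were falls (Lpl, Cybb, Slamf7, AB124611 and Slamf8), while 0 of the 77 rises did. The covariate comes from these same arrays, moves with genotype and holds 6 of the rises, 4 of them among the 77. Losing rises and keeping falls is thus partly built in, and no cause of the rises can be read from these counts. Under the same covariate Siglech differed by 2.07 (adjusted p = 1.03e-04), P2ry12 by 1.91 (0.00694) and Mertk by 0.58 (0.202).

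Several rises with the smallest p among the 77 belonged to no list. Lpcat2, an enzyme that makes platelet-activating factor, led them with 0.92 ± 0.15 (1.89-fold, adjusted p = 0.00311). It had 7.14, 7.93 and 7.31 in KO at 6 weeks, against 6.15, 6.63, 6.81 and 6.32 in WT, and 6.50 to 7.37 with a median of 7.04 in KO at 12 weeks, against 6.60, 5.90, 5.96, 5.99 and 6.10 in WT. The overlap was 1 high WT array at 12 weeks. Ctla2a, which in mouse encodes an inhibitor of cathepsin-type proteases, rose by 1.49 ± 0.25 (adjusted p = 0.00311), with KO medians of 4.67 at 6 weeks and 4.92 at 12 weeks, against WT medians of 3.09 and 3.57, and no overlap at either stage. Selenop, the plasma and brain carrier of selenium, rose by 0.65 ± 0.12 (adjusted p = 0.00586). Its values ran from 10.45 to 10.81 in KO and 9.66 to 10.38 in WT at 6 weeks, and 10.68 to 10.88 in KO and 10.00 to 10.23 in WT at 12 weeks.

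Rnase4, a secreted ribonuclease, rose by 1.21 ± 0.21 (2.32-fold, adjusted p = 0.00515), and Ang, the angiogenin gene that shares its locus with Rnase4 in mouse, by 0.99 ± 0.21 (adjusted p = 0.0190) on 1 probe set. Cd37, a tetraspanin gene of leukocytes, rose by 1.06 ± 0.19 (adjusted p = 0.00568). Tlr13, in mouse an endosomal receptor for bacterial ribosomal RNA, rose by 1.78 ± 0.32 (3.43-fold, adjusted p = 0.00586), with medians of 5.82 in KO and 4.61 in WT at 6 weeks and of 6.40 in KO and 4.83 in WT at 12 weeks, and no overlap at either stage. It was the single member of 11 tested in the list of Toll-like receptors and their partners to pass. Tlr7 differed by 1.37 and Tlr3 by 0.67. Gal3st4, a galactose sulfotransferase gene, rose by 1.73 ± 0.31 (adjusted p = 0.00586), and in KO at 6 weeks its value was 7.75 in replicate 2, against 5.07 and 4.93 in the other KO arrays.

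Falls were few, and 4 of the 12 were genes that microglia raise in damaged tissue. Of 28 tested members of that list, 4 fell in KO (Itgax, Cybb, Atp6v0d2 and Lpl), 1 rose (Timp2, an inhibitor of matrix proteases, 0.82, passing in 6 of the 18 fits that left out an array), and the median was -0.04. Lpl encodes lipoprotein lipase, which frees fatty acids from lipoproteins, and it passed only when the stages were pooled. It had 5.35, 4.68 and 4.54 in KO at 6 weeks, against 7.33, 7.24, 8.72 and 5.91 in WT, and 4.37 to 6.02 with a median of 5.26 in KO at 12 weeks, against 6.41, 6.68, 6.54, 7.17 and 7.76 in WT. No KO array reached a WT array of its stage. The pooled difference was -1.93 ± 0.31 (3.82-fold lower in KO, adjusted p = 0.00240, limma), with single-stage adjusted p of 0.0881 at 6 weeks and 0.0709 at 12 weeks. Spp1, the osteopontin gene, differed by -1.41 (adjusted p = 0.0628), Lgals3 by -0.75 (adjusted p = 0.338), Clec7a by -0.50 (adjusted p = 0.652), Apoe by -0.04 (adjusted p = 0.930) and Cst7 by 0.97 (adjusted p = 0.254). Members of this list lay on both sides of 0.

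Cybb, which encodes the core of the superoxide-producing oxidase of phagocytes, was the other large fall seen only when pooled. It had 3.67, 5.20 and 3.83 in KO at 6 weeks, against 6.19, 6.44, 8.60 and 5.12 in WT, and 3.51 to 4.57 with a median of 3.72 in KO at 12 weeks, against 4.85, 6.82, 5.07, 5.89 and 7.36 in WT. The groups overlapped at 6 weeks by 1 array of each genotype and not at 12 weeks. The pooled difference was -2.22 ± 0.39 (4.66-fold lower, adjusted p = 0.00568). Itgax, the gene for CD11c, fell by 2.25 on the log2 scale, and Atp6v0d2, which encodes part of the proton pump of acidic organelles, by 1.94. Both passed at 12 weeks too. The KO medians of Itgax, 3.43 at 6 weeks and 3.39 at 12 weeks, lay at about the filter level for dim genes (log2 of 3.41), so the size of its fall is uncertain. On the brightest probe set Itgax had -0.42 (adjusted p = 0.379), Atp6v0d2 -1.50 (adjusted p = 0.0731) and Cybb -2.25 (adjusted p = 0.0580), and none passed.

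Slamf7 and Slamf8, receptor genes of a leukocyte family that signals between immune cells, also fell only in the pooled test, by 1.61 and 0.86. Slamf7 had 3.22, 3.03 and 3.03 in KO at 6 weeks, against 5.87, 4.95, 6.73 and 3.34 in WT, and 2.83 to 3.78 with a median of 3.15 in KO at 12 weeks, against 5.04, 3.89, 3.50, 4.69 and 5.22 in WT. The KO values were uniformly dim while the WT values were spread, and at 12 weeks the groups overlapped. AB124611, a gene known by its sequence name, fell by 1.57 (adjusted p = 0.0135), with no overlap at either stage. The other falls were smaller: Lrrc8b, a subunit of volume-regulated anion channels, by 0.69, Arpc1a, a subunit of the complex that branches actin, by 0.54, and Sympk, a scaffold of messenger RNA polyadenylation, by 0.43. Sympk was 6.60 to 6.91 in KO and 7.01 to 7.32 in WT at 6 weeks, and 6.65 to 6.89 in KO and 7.08 to 7.44 in WT at 12 weeks, so the smallest fall still separated all arrays within stage. Arpc1a passed in 1 of the 18 fits that left out an array, Sympk in 3, Grpr in 5 and Slamf8 in 7. On the brightest probe set Slamf7 (-0.48), AB124611 (-0.87), Slamf8 (-0.68), Lrrc8b (-0.42), Arpc1a (-0.39), Sympk (-0.34) and Grpr (-0.89) did not pass. Grpr, a neuropeptide receptor gene with medians of 3.06 in KO and 3.39 in WT at 6 weeks, fell by 0.89 pooled and passed at 12 weeks too.

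Of 15 tested genes of TREM2 signalling, 2 rose beside the fall of Trem2. Cd33, an inhibitory sialic acid receptor gene, rose by 1.32 ± 0.19 (adjusted p = 8.21e-04). Pik3cg, a catalytic subunit of phosphoinositide 3-kinase in leukocytes, rose by 1.04 ± 0.23 (adjusted p = 0.0329), passed only when pooled, and passed in 8 of the 18 fits that left out an array. Inpp5d, the phosphatase that removes the product of that kinase, differed by 0.97 with an adjusted p of 0.0558, and Syk by 0.08 with an adjusted p of 0.926.

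Interferon-stimulated genes formed another group of rises. All 21 tested members of the list had a positive difference, 7 rose (Rtp4, Ifit3, Ifit1, Ddx58, Bst2, Cxcl10 and Ifi44), 0 fell, and the median was 0.70. The list's mean level overlapped at 6 weeks, with 5.89 to 7.28 in KO and 5.39 to 6.21 in WT. It did not overlap at 12 weeks, with 5.71 to 6.18 in KO and 5.03 to 5.18 in WT. Rtp4, a chaperone of surface receptors, had 7.26, 8.31 and 7.51 in KO at 6 weeks, against 6.23, 5.95, 6.73 and 7.03 in WT, and 6.87 to 7.51 with a median of 7.07 in KO at 12 weeks, against 4.59, 4.49, 5.22, 5.14 and 4.43 in WT. No arrays of a stage overlapped, and the rise was 1.92 ± 0.22 (adjusted p = 7.16e-05, limma). It was 1.21 at 6 weeks and 2.37 at 12 weeks, with an interaction p by limma of 0.00539 unadjusted and 0.830 adjusted. On its brightest probe set the rise was 0.84 and did not pass (adjusted p = 0.126). Among members passing only when pooled, Ddx58, which encodes the RNA sensor RIG-I, rose by 0.84 ± 0.17 (adjusted p = 0.0156), by 0.83 at 6 weeks and 0.85 at 12 weeks, and Ifi44 by 1.27 ± 0.27 (adjusted p = 0.0205). Members that did not pass included Usp18 (0.73), Isg15 (0.63), Irf7 (0.63) and Rsad2 (0.27).

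Genes outside that list but known to respond to interferon were also among the 85, chosen here after their values were seen. Lgals9, the galectin-9 gene, rose by 1.16 ± 0.22, Gbp3, a guanylate-binding GTPase, by 1.02 ± 0.20, Trim30d, of a family of near-identical copies that the probe sets may not separate, by 1.01 ± 0.19, and the chemokine gene Cxcl9 by 1.98 ± 0.39. Cxcl9 ranged widely in KO at 6 weeks, with 4.24, 8.45 and 6.44, against 4.15, 4.82, 4.66 and 5.53 in WT, and overlapped there. At 12 weeks it had 4.60 to 6.45 with a median of 6.25 in KO, against 3.52, 3.38, 4.29, 3.98 and 3.43 in WT.

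Promoters are shown because the core of the interferon-stimulated response element (GAAA, any 2 bases, GAAA, on either strand, with overlapping matches counted) was searched in them. Of 100 genes that rose and matched a RefSeq promoter (build GRCm38.p6, 250 bases before to 50 after the gene start), 17 held it (17.0%), against 451 of 12700 genes tested (3.55%) and 1131 of all 32851 promoters (3.44%). Ifit3 and Ifit3b, whose promoters are nearly the same sequence, both count among the 17. Among the 77 rises found only by pooling it was 10 of 64 (15.6%), in the interferon list 11 of 17 (64.7%), and in the resting microglia list 0 of 14. Of 10 genes that fell, 2 held it (Cybb and Slamf8). A match describes letters in this window and is not evidence of binding. The 5 promoters below read 5′ to 3′ on the strand of the gene, with the matched cores in capitals, and all but that of Ifit3 belong to genes that passed only when pooled. They are Lgals9 (chr11:78984875-78985174, minus strand), Gbp3 (chr3:142559794-142560093, plus strand), Trim30d (chr7:104507800-104508099, minus strand), Ifit3 (chr19:34583279-34583578, plus strand) and Cybb (chrX:9469275-9469574, minus strand).
Lgals9: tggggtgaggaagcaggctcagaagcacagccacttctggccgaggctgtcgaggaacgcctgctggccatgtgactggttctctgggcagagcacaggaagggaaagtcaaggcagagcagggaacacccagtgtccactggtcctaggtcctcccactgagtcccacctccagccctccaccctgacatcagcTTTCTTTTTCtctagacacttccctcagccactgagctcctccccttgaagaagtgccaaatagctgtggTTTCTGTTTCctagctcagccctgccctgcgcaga
Gbp3: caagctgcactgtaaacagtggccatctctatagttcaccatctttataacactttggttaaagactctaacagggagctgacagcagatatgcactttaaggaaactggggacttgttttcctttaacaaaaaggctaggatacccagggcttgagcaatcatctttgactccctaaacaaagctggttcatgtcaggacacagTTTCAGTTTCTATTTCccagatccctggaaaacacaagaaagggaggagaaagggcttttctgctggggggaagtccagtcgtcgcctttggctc
Trim30d: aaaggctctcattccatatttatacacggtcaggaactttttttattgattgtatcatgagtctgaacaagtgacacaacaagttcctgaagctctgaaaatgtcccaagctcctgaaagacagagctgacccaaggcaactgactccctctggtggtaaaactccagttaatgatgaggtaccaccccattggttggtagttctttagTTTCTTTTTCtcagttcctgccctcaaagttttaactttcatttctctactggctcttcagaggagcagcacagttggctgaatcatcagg
Ifit3: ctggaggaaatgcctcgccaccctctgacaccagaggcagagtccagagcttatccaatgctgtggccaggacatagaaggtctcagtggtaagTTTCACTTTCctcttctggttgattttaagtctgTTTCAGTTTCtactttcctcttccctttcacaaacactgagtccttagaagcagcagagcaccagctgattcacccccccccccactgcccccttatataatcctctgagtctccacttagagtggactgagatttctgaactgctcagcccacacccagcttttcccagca
Cybb: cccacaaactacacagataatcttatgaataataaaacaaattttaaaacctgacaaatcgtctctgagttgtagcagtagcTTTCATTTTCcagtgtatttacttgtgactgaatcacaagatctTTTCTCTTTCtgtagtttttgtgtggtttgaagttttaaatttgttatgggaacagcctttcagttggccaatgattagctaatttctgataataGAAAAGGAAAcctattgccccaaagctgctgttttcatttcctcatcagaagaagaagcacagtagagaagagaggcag
Ifit3, whose gene body is close in sequence to its copy Ifit3b, rose by 1.22 ± 0.15 and Cybb fell by 2.22. Both promoters match the searched pattern, but the 2 free bases of the Ifit3 matches differ from those of every Cybb match. In Gbp3 the 2 matches overlap, with first bases at positions -45 and -39 from the start, and in Trim30d the single match begins at -41. A second motif, GAGGAAGT, of the kind bound by PU.1, was found for 13 of the 100 rises with a promoter, against 415 of 12700 genes tested (3.27%). It was found for 9 of the 64 rises seen only by pooling (14.1%), 0 of the 10 falls and 0 of 14 genes in the resting microglia list. Of all 32851 promoters, 1052 held it.

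Antigen presentation, complement and chemokines each held some genes that passed. In the class I list 2 of 10 members rose, H2-D1 (1.21), whose probe sets may be shared with related class I genes, and B2m (0.61), the invariant chain, which passed only when pooled. In the class II list 0 of 7 passed by limma, and the median was -0.27, with Cd74 at -0.93 and H2-Aa at -0.66. An unadjusted p under 0.05 was found for 1 of the 7, against 1682 of all 16324 genes tested. In the complement list 4 of 13 rose and 1 fell: C1qa (1.09 ± 0.22) and C1qb (1.37 ± 0.31), the starters of the classical pathway, C4b (0.94) and Itgam, the receptor subunit CD11b (1.70), against the fall of Itgax. C1qa had 8.75, 10.37 and 9.20 in KO at 6 weeks, against 8.23, 8.09, 9.37 and 8.39 in WT, and 8.74 to 9.85 with a median of 9.47 in KO at 12 weeks, against 7.74, 8.65, 7.87, 8.58 and 8.35 in WT. The groups overlapped at 6 weeks through WT replicate 3. With an array left out C4b passed in 3 of 18 fits, B2m in 4 and C1qb in 5. Of 17 chemokine and cytokine genes 2 rose, Cxcl10 (1.35) and Ccl12.

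Ccl12, a chemokine gene that attracts monocytes, also passed only when pooled. It had 7.09, 9.04 and 7.55 in KO at 6 weeks, against 5.63, 4.09, 6.33 and 6.38 in WT, and 6.41 to 7.74 with a median of 7.34 in KO at 12 weeks, against 4.40, 6.17, 5.61, 5.92 and 5.30 in WT. The groups did not overlap at either stage. The pooled rise was 1.95 ± 0.32 (3.87-fold, adjusted p = 0.00311). The chemokine genes Ccl2 (-0.09), Ccl3 (-0.20) and Ccl4 (-0.09) did not pass.

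**Figure D4:**
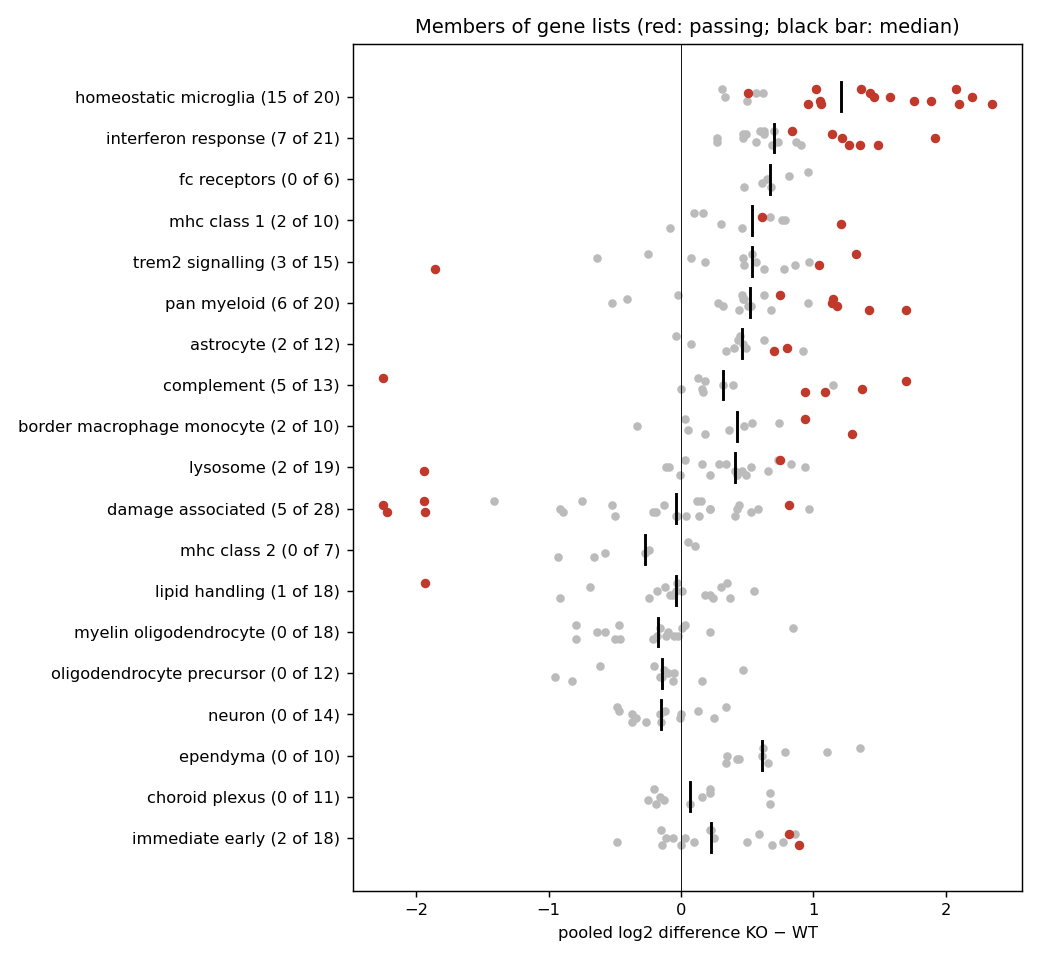
Pooled log2 difference KO minus WT of each tested member of 19 gene lists, 1 point per gene, red where it passed, with the list's median as a black bar and the number passing of those tested beside the name. The resting microglia list has 15 of 20 red points, all right of 0, and the damage-associated list has red points on both sides.

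Markers of other cells were examined for the same contrast. In the astrocyte list 2 of 12 rose, the bicarbonate transporter gene Slc4a4 (0.80) and the glutamate transporter gene Slc1a2 (0.70, found only by pooling), with a median of 0.46. On the brightest probe set they had 0.24 (Slc4a4, adjusted p = 0.484) and 0.22 (Slc1a2, adjusted p = 0.415), and neither passed. The list's mean level ran from 8.03 to 8.67 in KO and from 7.67 to 8.11 in WT at 6 weeks, and from 7.91 to 8.35 in KO and from 7.68 to 7.82 in WT at 12 weeks. The part of astrocyte RNA in these rises was not tested. Of 10 markers of border macrophages and monocytes, 2 rose, Stab1 (0.94) and Mrc1 (1.29, found only by pooling, and -0.49 on its brightest probe set), with mean levels of 4.09 to 4.49 in KO and 3.78 to 4.06 in WT at 6 weeks and of 4.29 to 5.11 in KO and 3.92 to 4.59 in WT at 12 weeks. No gene passed by limma in the lists of myelin (18 genes, median -0.17, 4 with an unadjusted p under 0.05), oligodendrocyte precursors (12 genes, -0.14, 4), neurons (14 genes, -0.15, 1), choroid plexus (11 genes, 0.07, 0), endothelium (12 genes, 0.33, 3), vessel wall cells and fibroblasts (12 genes, 0.24, 4), neutrophils (5 genes, -0.30, 0), lymphocytes (6 genes, 0.15, 1) and the hippocampus (10 genes, 0.15, 1). Medians at 6 and 12 weeks had opposite signs for myelin (-0.58 and 0.15), choroid plexus (-0.57 and 0.40) and the hippocampus (-0.33 and 0.24). So they did for neutrophils (0.08 and -0.27) and lymphocytes (0.36 and -0.01). Of those with an unadjusted p under 0.05, 0 of 4 myelin and 1 of 4 precursor genes were higher in KO. All 3 endothelial, all 4 vessel wall and the lymphocyte gene were higher, and the neuron and hippocampus genes lower. Mbp, the myelin basic protein gene, had -0.79 (adjusted p = 0.363), and Gpr17, a receptor gene of maturing precursors, had -0.61 (adjusted p = 0.125). Of 6 Fc receptor genes 0 passed and 6 had an unadjusted p under 0.05, all higher (median 0.67). Over all 16324 genes tested, 1682 had an unadjusted p under 0.05 in the pooled test. Lists with 1 or 2 genes passing were lipid handling (Lpl, of 18), lysosome (Ctss higher and Atp6v0d2 lower, of 19), phagocytosis receptors (Mertk and Stab1, of 14), reactive astrocytes (Cxcl10, of 13), sterol and lipid synthesis (Thrsp, of 16) and matrix (Timp2, of 15). Cell cycle (14 genes, 1 with an unadjusted p under 0.05), stress response (13, 3), copper and metallothionein (11, 1) and iron handling (11, 4) had 0 passing by limma.

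Among immediate early genes, which cells induce within minutes and which also respond to handling, 2 of 18 rose, Btg2 (0.89) and Jun (0.82), both found only by pooling. With an array left out Btg2 passed in 4 and Jun in 9 of 18 fits. The median of this list was 0.69 at 6 weeks and -0.05 at 12 weeks, and its mean level at 6 weeks ran from 6.10 to 7.21 in KO and from 5.49 to 5.92 in WT. The part of handling in these rises was not tested.

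The pooled test also lost genes. Of those that passed at 1 stage, 20 did not pass pooled, 19 from 12 weeks and 1 from 6 weeks. All 19 had an unadjusted interaction p under 0.05, and 11 of them had the opposite sign at 6 weeks. Passing at 12 weeks and not pooled favours both traits, so these counts only describe the choice. Over all 16324 genes tested, 849 had such an interaction p, and 8834 (54.1%) had the same sign at both stages. Cxcl5, a neutrophil-attracting chemokine gene, had a difference of -0.41 at 6 weeks and 1.81 at 12 weeks, and Rerg, a RAS-like growth inhibitor gene, had -0.85 and 1.12. Zfp36, which encodes a factor that destabilises messenger RNA, had 1.18 at 6 weeks and 0.07 at 12 weeks. The smallest interaction p values, none passing (adjusted p of 0.414 or more by limma), were those of Tbc1d8b (-0.92 at 6 weeks and 1.02 at 12 weeks), Rerg, Rwdd3, Scnn1a and Zfp882.

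The calls moved with single arrays. Leaving out each array in turn gave 81 to 231 pooled genes and kept 39 to 82 of the 85. The count moved by over 1.5 times without KO replicate 1 of 6 weeks (231 genes), KO replicate 2 of 6 weeks (90), WT replicate 1 of 12 weeks (88) and WT replicate 4 of 12 weeks (81). Of the 85 genes 39 remained without KO replicate 2 and 49 without WT replicate 2 of 6 weeks, 51, 53, 55 and 53 without KO replicates 2, 3, 5 and 6 of 12 weeks, and 41, 41 and 52 without WT replicates 1, 4 and 5 of 12 weeks. All 18 such fits were passed by 74 of the 138 genes and 34 of the 85, among them every named rise of the plot of neither-stage genes and Lpl, Cybb and AB124611 of its falls. With sex inferred from sex-linked transcripts, all 138 genes kept their sign in the 5 KO and 5 WT male arrays and in the 4 KO and 4 WT female arrays, against 54.8% of all genes tested. They did so too in each of 3 stretches of consecutive sample numbers, which may or may not mark batches (32.5% of all genes tested). At 12 weeks one stretch held male KO and female WT arrays and the other female KO and male WT arrays, so within a stretch genotype and sex cannot be told apart, nor genotype and stretch within a sex. These arrays are the ones that chose the genes, so the shares are a description. Which probe set stood for a gene mattered more: with the brightest one, 55 of the 138 and 29 of the 85 passed, and 132 of the 138 kept their sign. Besides the genes given above with such values, Ctla2a (1.03), Cd37 (1.31), Trim30d (0.54), Ddx58 (0.72), C1qa (0.92), C1qb (0.91), C4b (0.82), B2m (0.50), Pik3cg (1.66), Timp2 (0.60), Btg2 (0.60), Jun (0.65), Cxcl10 (1.38) and Stab1 (1.12) did not pass with it, and Ecscr had -0.18.

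**Figure D5:**
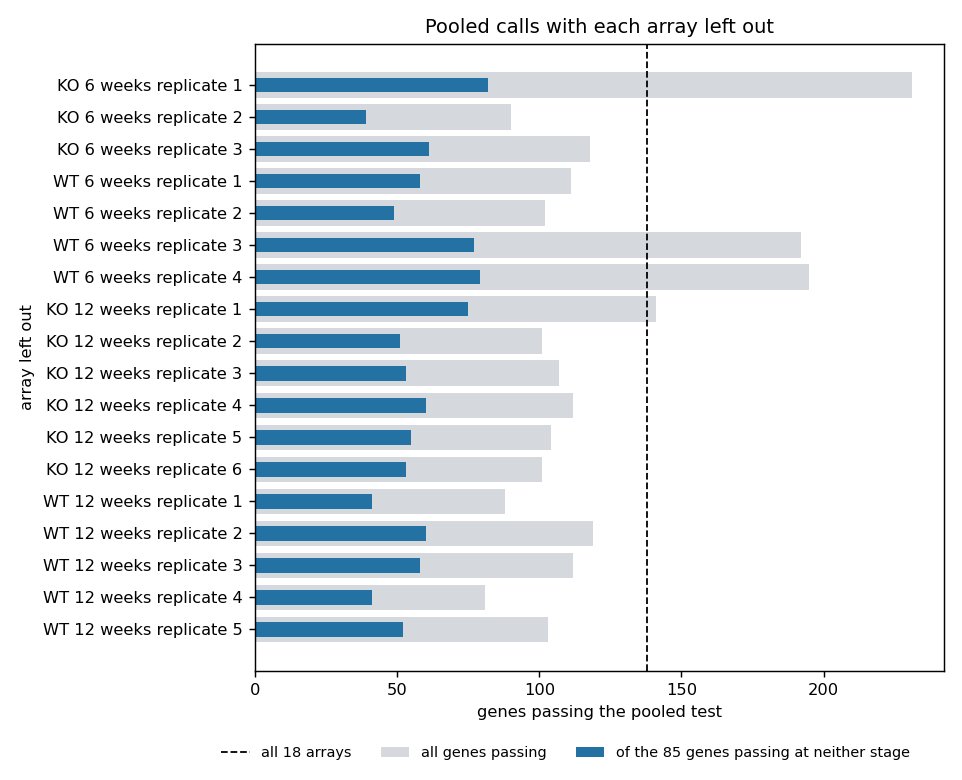
Number of genes passing the pooled test with each array left out (grey) and how many of the 85 genes found only by pooling were among them (blue), with the count from all 18 arrays as a dashed line. The grey bars run from 81 to 231 and the blue bars from 39 to 82.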

How the data were processed

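RNA of the caudal corpus callosum was measured on 18 one-colour arrays. The values are the authors' deposited log2 values of 241576 probe sets, from 0.732 to 13.674, with array medians of 5.26 to 5.41. The authors' background correction, normalization and summarisation are not given in the sources used here, and no further normalization was done. Array background was not used here, so low values are uncertain in size.

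Of the probe sets 212097 carried 1 gene symbol in the platform annotation, 4475 several and 25004 none, and the first kind was used. Through RefSeq (GRCm38.p6) 2688 symbols were updated, and 107 were not found there. A gene is the median of its probe sets (20406 genes, a median of 8 probe sets each, 2288 genes on 1). The 20% of genes with the lowest mean (log2 of 3.41 or less) were left out.

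Groups come from the labels. Genotype and stage were fitted to all arrays with limma 3.58.1 in R 4.3.3 (15 residual degrees of freedom), and with 4 group means (14) for the single stages and the interaction, two-sided, with Benjamini-Hochberg adjustment over 16324 genes at 0.05. The exact permutation test of Trem2 exchanged genotype within stages. Differences are log2 KO minus WT. The fits were tested on simulated data.

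The comparison, its members and the 36 gene lists were chosen with earlier results of these data known. The rule names Trem2 and its family, the 15 largest rises and falls, the 12 smallest p each way among genes passing pooled but at neither stage, the 5 smallest interaction p, and, for each list described, at most 4 members by smallest p, and it passes over clone names. Further genes were named after their values were seen. Alternatives covered the filter, normalization, probe set value, array weights, prior, stage weights, replicate block, sex, stretches of sample numbers, tissue scores, thresholds and leaving out arrays. Added after seeing the data were each sex alone and a pan-myeloid covariate. Same-numbered arrays correlated between genotypes by -0.36 to 0.24, so the numbers were not taken to pair arrays. Tables and plots were made in Python 3.11.15 (pandas 2.3.3, numpy 2.4.6, matplotlib 3.10.9).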

Additional observations from a re-analysis of the deposited data

Results flagged for a closer look

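Of 129 groups of 4 to 6 arrays examined for 43 named genes, 4 held 1 array far from the others by Dixon's criterion, which chance meets in about 1 group of 20. All were WT arrays above their group. Gpr34 was 6.50 in WT replicate 3 of 6 weeks, where the nearest WT array had 5.11. Cx3cr1 was 9.43 in the same array, and the nearest had 8.38. Lpcat2 was 6.60 in WT replicate 1 of 12 weeks, and the nearest had 6.10. Rwdd3 was 5.94 in WT replicate 1 of 6 weeks, and the nearest had 4.39. Gpr34, Cx3cr1 and Lpcat2 passed the pooled test in all 18 fits that left out an array.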

How the results depend on the processing

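The count of 138 pooled genes became 229 with the mean of a gene's probe sets (125 of the 138 among them), 81 with the brightest probe set (55), 218 with a myelin score as covariate (138), 54 at a threshold of 0.01 and 74 with a log2 difference of at least 1 required, and 81 to 231 with an array left out. With the other planned settings it lay between 94 and 182. In arrays of 1 sex it was 34 (male) and 1 (female), and with the pan-myeloid covariate 45. The count at 12 weeks (72) became 45 with quantile normalization, 177 with array weights, and 217 when KO replicate 2 and WT replicate 4 of 6 weeks, the least weighted arrays, were dropped. With an array left out it was 15 to 130, at 31 or under without any one of KO replicates 2 to 6 or WT replicates 1, 3, 4 and 5 of 12 weeks, and at 122 and 130 without WT replicate 4 or KO replicate 2 of 6 weeks. The count at 6 weeks (7) became 0 to 11, with 1 and 4 without KO replicates 2 and 3, and 0, 2 and 11 without WT replicates 1, 2 and 3 of 6 weeks. The interaction count was 0 in every fit run. Trem2 ran from -1.98 to -1.74 with an array left out and was -1.76 in female arrays, without passing there (adjusted p = 0.655). With the brightest probe set 6 of the 138 genes changed sign: Ecscr (-0.18), Mrc1 (-0.49), Inpp4b (-0.28), Mid1 (-0.25), Gpc6 (-0.05) and Casq2 (-0.02). With replicate number as a block (replicate block) 94 genes passed, 73 of the 138 and 29 of the 85, and the numbers do not pair the arrays. With tissue scores as covariates 50 of the 85 passed, and without the least weighted arrays 44. The causes were not tested. Dim genes and the number of arrays limit these values.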

Other observations

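Ciliated ependymal genes had positive pooled differences for all 10 members, with a median of 0.61, and 0 passed by limma. Their median was -0.17 at 6 weeks and 1.10 at 12 weeks. At 12 weeks the mean level of the list ran from 5.24 to 7.11 in KO and from 4.52 to 5.55 in WT. At 6 weeks it ran from 5.18 to 5.52 in KO and from 4.55 to 7.45 in WT. The value of 7.45 was that of WT replicate 4, while WT replicates 1, 2 and 3 had 4.86, 4.55 and 4.91, below every KO array. WT replicate 4 also had a choroid plexus mean level of 9.03, against 5.64, 4.99 and 5.66 in those WT arrays. The part of this array in the 6-week median was not tested. Of the 10 ependymal genes, 3 had an unadjusted p under 0.05 in the pooled test, against 1682 of all 16324 genes tested.

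With the pan-myeloid level as a covariate, some genes that the pooled fit did not call were lower in KO. Spp1, the osteopontin gene, had -2.45 (adjusted p = 1.42e-06), against -1.41 (0.0628) without it. Cd52 had -1.31 (1.03e-04) and Lgals3, the galectin-3 gene, -1.59 (1.03e-04). Igf1, a growth factor gene, had -1.18 (0.00217), against -0.13 (0.929) without the covariate. Cxcl16 had -1.32 (0.00470) and Apobec1 -1.50 (7.43e-04). The covariate comes from the same arrays, holds Cd52 itself, and contains genes that passed the pooled test, so these values depend on that choice. Its mean was higher in KO at 6 weeks (8.07 against 7.45 in WT) and at 12 weeks (7.96 against 7.36). Genes that follow it are therefore moved down in KO, and the direction of these values is partly built in.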
